A study of Mus musculus with 6 samples.

Results

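The proteasome and immunoproteasome subunits are described here across cells of bronchoalveolar lavage fluid of mice, which is collected by washing the lungs with saline. Members were all rows of the deposited expression table whose symbol begins with Psm, a letter from a to g and a digit. This rule found 51 of 22800 gene symbols, and 50 of them reached the level needed for testing. RNA sequencing was done on 6 libraries. The control group is 3 vehicle libraries, numbered 2, 3 and 4 in the sample titles, and the treated group is 3 sulfatide libraries, numbered 1, 2 and 3, whose mice had an intraperitoneal dose of 20 µg. Sulfatide, a glycolipid abundant in myelin, is an antigen of type II natural killer T cells. The series title names lung ischemia and reperfusion injury and alveolar macrophages, but the labels do not say whether these mice had been injured. Strain, age, the time between injection and lavage and the number of animals behind each library are not stated. A p-value therefore reflects the variation among these libraries, part of which could be technical.

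The proteasome degrades proteins tagged with ubiquitin. Its 20S core is a barrel of alpha and beta rings, in which the beta subunits Psmb5, Psmb6 and Psmb7 cut the protein chain. The 19S cap recognises ubiquitin, unfolds the substrate with a ring of ATPases and feeds it into the core. Interferons induce the replacement subunits Psmb8 (LMP7), Psmb9 (LMP2) and Psmb10 (MECL-1), which take the places of Psmb5, Psmb6 and Psmb7 in newly assembled cores and give the immunoproteasome. Interferons also induce Psme1 and Psme2, the alpha and beta chains of PA28, a ring that opens the core without ATP. Macrophages carry both kinds of core, and the peptides that leave them are moved by the Tap1 and Tap2 transporter onto MHC class I molecules.

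Of the 51 members, 31 encode constitutive subunits of the core and the cap, 3 encode the induced catalytic subunits and 2 encode PA28. Another 3 encode other activators and an inhibitor (Psme3, Psme4 and Psmf1), and 7 encode assembly chaperones. Psma8 and Psmb11 are core subunits known from testis and thymus, and Psmc3ip matches by its symbol but encodes a recombination factor rather than a subunit. Psme2b is a near copy of Psme2, and Psme3ip1 encodes a protein that binds Psme3. Psmb11 was listed at 0 in all 6 libraries and was not tested. Psma8 only just reached the level for testing, with a mean of 0.91 FPKM in vehicle and 0.943 FPKM in sulfatide. FPKM is the number of fragments scaled to transcript length and to the library total, so that levels of different genes can be set side by side.

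Psmb9 lies close to Psmb8 in the mouse genome, and Psme1 lies close to Psme2. By RefSeq positions on GRCm38, Psmb9 spans chr17:34182030-34187330 and Psmb8 spans chr17:34198195-34201454, within the major histocompatibility complex. Tap1 (chr17:34187556-34197225) lies between them and Tap2 (chr17:34204479-34216321) lies beyond Psmb8. Psme1 (chr14:55578494-55581527) and Psme2 (chr14:55587440-55591101) are neighbours, whereas Psmb10 stands apart at chr8:105935728-105938392. Sequences from before the starts of Psmb8, Psmb9, Psme1 and Psme2 are shown because their transcripts fell together in sulfatide. That of Psmb5, which did not pass the test, is shown for contrast, and none is shown for Psmb10. They are taken from RefSeq on GRCm38 and run 5′ to 3′ on the strand of the gene, and capitals mark matches to the motifs searched. Only bases free of annotated exons, or at most 30 bases where such exons cover the region, are printed.
Psmb8, chr17:34198087-34198116, plus strand: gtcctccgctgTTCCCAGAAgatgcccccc
Psmb9, chr17:34187331-34187360, minus strand: cctgcaccgcgcgcagccgctgATTGGaaa
Psme1, chr14:55578249-55578359, plus strand: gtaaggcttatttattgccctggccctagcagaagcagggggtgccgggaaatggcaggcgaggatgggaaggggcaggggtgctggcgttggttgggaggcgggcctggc
Psme2, chr14:55591114-55591351, minus strand: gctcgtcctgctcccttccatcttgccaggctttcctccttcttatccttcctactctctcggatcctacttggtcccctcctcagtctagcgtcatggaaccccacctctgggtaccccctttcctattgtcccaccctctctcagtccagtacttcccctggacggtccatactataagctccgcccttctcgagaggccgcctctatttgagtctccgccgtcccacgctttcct
Psmb5, chr14:54618023-54618245, minus strand: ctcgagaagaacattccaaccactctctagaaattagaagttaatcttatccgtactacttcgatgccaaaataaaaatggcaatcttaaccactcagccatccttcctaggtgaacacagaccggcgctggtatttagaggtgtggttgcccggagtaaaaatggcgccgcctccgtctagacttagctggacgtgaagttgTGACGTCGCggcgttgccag

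Motifs were searched on both strands in the 250 bases before each annotated start, and 43 of the 51 members had such a sequence. A gene was counted if any of its annotated starts had a match, whereas the share of all promoters counts each start singly. The counts of genes and the shares of all promoters are therefore not directly comparable. The gamma interferon activation motif TTCNNNGAA was in 1 of 5 induced genes (Psmb8), in 0 of 25 constitutive subunit genes and in 7.02% of all 32851 promoters. The interferon response core GAAANNGAA was in 0 of 5, in 2 of 25 and in 7.13% of all promoters. The motif CCAAT was in 1 of 5 (Psmb9, in reverse, as shown above), in 10 of 25 and in 33.9% of all promoters. The factor encoded by Nfe2l1 can bind to the antioxidant response core TGANNNNGC. This motif was in 2 of 5 (Psmb9 and Psme2, both outside the stretches shown above), in 9 of 25 and in 35.2% of all promoters. A match of this kind is a string of letters and not a measured binding site, and no match says only that the letters are not in that window.

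All 5 induced genes were lower in sulfatide, and the levels of their constitutive counterparts did not pass the test. Psmb9 fell 2.10-fold, Psmb8 1.54-fold, Psmb10 1.52-fold, Psme2 1.38-fold and Psme1 1.37-fold in mean FPKM. The test was limma on log2(FPKM + 1) over all 10405 genes with at least 1 FPKM in 3 or more libraries, with Benjamini-Hochberg adjustment. The threshold for a call was an adjusted p of 0.05. Across the whole table, 18.7% of genes tested were called, 10.4% lower and 8.31% higher in sulfatide. Among the 50 tested members, 20.0% were called, 9 lower (18.0%) and 1 higher (2.0%), so that the members as a whole were called about as often as other genes. Of the genes called, 44.5% were higher, and 23.4% after each library was rescaled to the same total (TPM). The median log2 fold change (sulfatide minus vehicle) was -0.61 over the 5 induced genes, 0.07 over the 31 constitutive subunits, 0.05 over the 50 tested members and 0.04 over all genes tested.

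**Figure D1:**
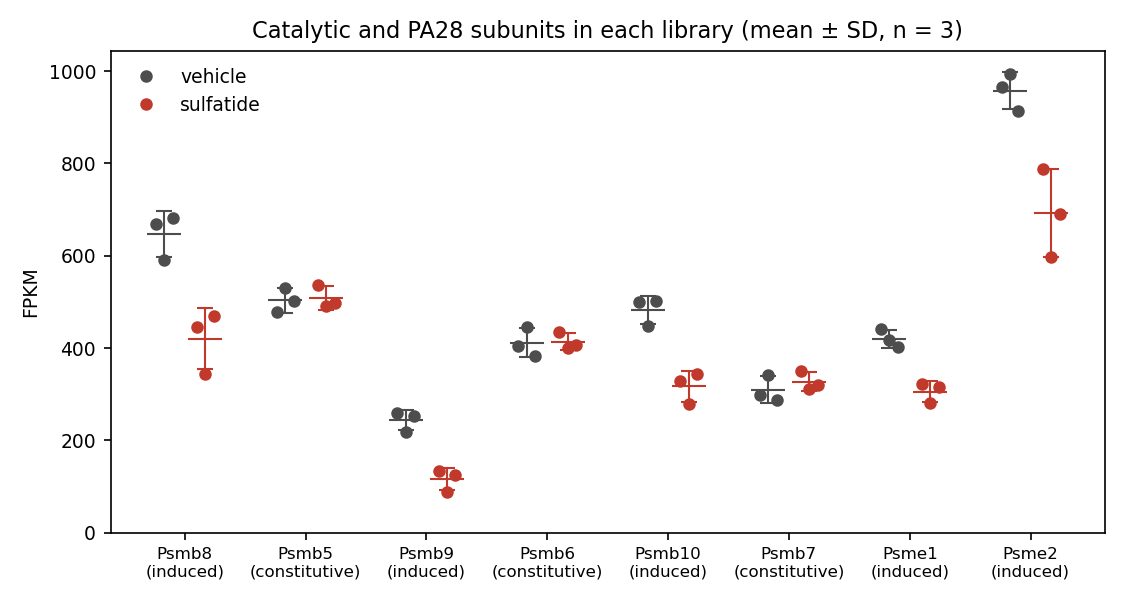
FPKM (vertical axis) of each induced subunit beside its constitutive counterpart, and of the PA28 chains, in vehicle and sulfatide libraries; points are libraries, horizontal lines means and error bars SD (n = 3). Vehicle and sulfatide points do not overlap for Psmb8, Psmb9, Psmb10, Psme1 and Psme2, and overlap for Psmb5, Psmb6 and Psmb7.

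Psmb9, which replaces Psmb6 and changes the cuts the core makes, was at 258.80, 219.33 and 253.61 FPKM in vehicle replicates 2, 3 and 4. In sulfatide replicates 1, 2 and 3 it was at 134.88, 88.40 and 125.45 FPKM. Every sulfatide library was below every vehicle library, and sulfatide replicate 2 was the lowest. The means were 243.9 ± 21.5 and 116.2 ± 24.6 FPKM (SD, n = 3 each), a log2 fold change of -1.08 ± 0.15 (SE, limma adjusted p = 0.00144). Some exons of Psmb9 share 212 bases with those of Tap1 on the opposite strand, 5.79% of its exon bases, and no source used here says whether counting used the strand.

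Psmb8, the replacement for the chymotrypsin-like subunit Psmb5, was at 669.33, 589.85 and 680.97 FPKM in vehicle. In sulfatide it was at 446.37, 344.67 and 468.94 FPKM, again with no overlap and with the lowest value in replicate 2. The log2 fold change was -0.63 ± 0.12 (limma adjusted p = 0.00829). Its exons share 14.7% of their bases with an antisense gene, Gm20496.

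Psmb10, which replaces the trypsin-like subunit Psmb7, was at 499.38, 448.41 and 502.20 FPKM in vehicle and at 328.91, 279.53 and 343.46 FPKM in sulfatide. The groups were separate, and vehicle replicate 3 was the lowest vehicle library, as for Psmb8 and Psmb9. The log2 fold change was -0.61 ± 0.10 (limma adjusted p = 0.00316). No 50-base stretch of the Psmb9 or Psmb10 transcripts occurs in a transcript of another gene.

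Psme1, the PA28 alpha chain, was at 441.71, 416.84 and 402.42 FPKM in vehicle and at 321.54, 280.09 and 315.86 FPKM in sulfatide (log2 fold change -0.46 ± 0.09, limma adjusted p = 0.00658). Psme2, the beta chain and after Psma6 the member with the highest level, was at 966.26, 993.73 and 913.43 FPKM in vehicle. In sulfatide it was at 787.90, 597.08 and 691.27 FPKM (-0.48 ± 0.11, limma adjusted p = 0.0163). Neither gene's groups overlapped, and the lowest of the 6 libraries was sulfatide replicate 2 for each. Psme2 was not called without vehicle replicate 2 or without sulfatide replicate 3 (limma adjusted p at most 0.0728). The ratio of Psme2 to Psme1 was 2.28 ± 0.10 in the controls and 2.26 ± 0.17 after sulfatide (SD, n = 3 per group), a difference smaller than the spread between libraries.

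Psme2b was at 412.89, 416.77 and 410.92 FPKM in vehicle and at 345.16, 272.20 and 319.23 FPKM in sulfatide (-0.41 ± 0.10, limma adjusted p = 0.0202). It was not called without vehicle replicate 2 or 4 or sulfatide replicate 3 (limma adjusted p at most 0.0794). Of its 50-base stretches 68.7% occur in Psme2 too, and 28.3% of those of Psme2 occur in Psme2b. How fragments were divided between these copies is uncertain, so the fall listed for Psme2b is not separate evidence of that of Psme2.

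The constitutive catalytic subunits did not pass the test. Psmb5 was at 477.14, 531.13 and 502.33 FPKM in vehicle and at 537.65, 490.83 and 497.29 FPKM in sulfatide. Its log2 fold change had a 95% interval of -0.168 to 0.197 (limma adjusted p = 0.918). Psmb6 was at 405.61, 446.38 and 383.81 FPKM in vehicle and at 435.22, 401.24 and 406.22 FPKM in sulfatide, with an interval of -0.183 to 0.203 (adjusted p = 0.950, limma). Psmb7 was at 297.99, 342.74 and 288.28 FPKM in vehicle and at 350.50, 312.20 and 319.94 FPKM in sulfatide, with an interval of -0.127 to 0.293 (adjusted p = 0.565, limma). The groups overlapped for each of these genes. The intervals do not reach the size of the falls of Psmb8, Psmb9 and Psmb10. Psmb5 has stretches in common with other transcripts over 54.1% of its length, so its level is less certain than that of Psmb6 (1.05%) or Psmb7 (0.0%).

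Set against its counterpart within each library, each induced catalytic subunit took a smaller share in sulfatide. Psmb8 made up 58.4, 52.6 and 57.6% of the summed FPKM of Psmb8 and Psmb5 in vehicle, and 45.4, 41.3 and 48.5% in sulfatide. Psmb9 made up 39.0, 33.0 and 39.8% of Psmb9 and Psmb6 in vehicle, and 23.7, 18.1 and 23.6% in sulfatide. Psmb10 made up 62.6, 56.7 and 63.5% of Psmb10 and Psmb7 in vehicle, and 48.4, 47.2 and 51.8% in sulfatide. In no pair did the groups overlap. By listed FPKM the induced subunit was the more abundant for Psmb8 in vehicle and the less abundant in each sulfatide library. Psmb9 was the less abundant of its pair in all 6 libraries. Which transcript led in the Psmb8 pair is uncertain, since 54.1% of the stretches of Psmb5 occur in other transcripts. These are ratios of transcripts and not of assembled cores.

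**Figure D2:**
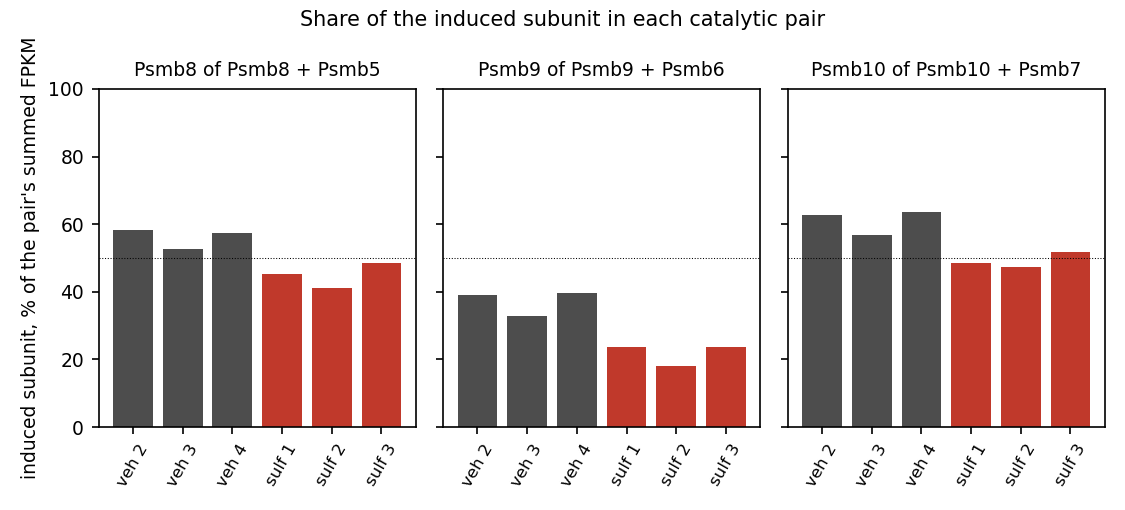
Share of the induced subunit in the summed FPKM of each catalytic pair (percent, vertical axis) by library (veh, vehicle; sulf, sulfatide; numbers are replicates); the dotted line marks equal levels. Each vehicle bar is above each sulfatide bar, with Psmb8 at 52.6 to 58.4% in vehicle and 41.3 to 48.5% in sulfatide.

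On the log2 scale the ratio of Psmb8 to Psmb5 changed by -0.65, that of Psmb9 to Psmb6 by -1.09 and that of Psmb10 to Psmb7 by -0.69. An exact permutation test over the libraries (2-sided) gave p = 0.1 for each of the 3 ratios, also after adjustment over them. That is the smallest value that 3 against 3 libraries allow. It follows from the lack of overlap already given and adds nothing to it, and these genes too were chosen with earlier results known. A ratio within a library does not depend on how the library was scaled. Psmb9 also fell relative to Psmb8, from a ratio of 0.377 ± 0.0084 to 0.275 ± 0.024 (SD, n = 3 each), with no overlap.

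Across the 5 induced genes, the mean log2 level minus that of the 31 constitutive subunits was 1.06, 0.809 and 1.06 in vehicle replicates 2, 3 and 4. It was 0.323, 0.0942 and 0.370 in sulfatide replicates 1, 2 and 3. The change of -0.715 in this difference is a description with no test, since the genes were chosen with earlier results known. Sulfatide replicate 2 had the lowest level of all 6 libraries for 5 of 5 induced genes, and without it the change was -0.631. Summed FPKM of the induced genes was 2752.1 ± 83.7 in vehicle and 1851.5 ± 229.7 in the treated group. That of the constitutive subunits was 9070.2 ± 589.4 and 9576.0 ± 542.6, with overlapping groups. All members together held 1.13 ± 0.031% of the summed FPKM in vehicle libraries and 1.01 ± 0.055% in sulfatide libraries (SD, n = 3 each).

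The order of levels changed with the induced genes. Psma6, an alpha ring subunit, had the highest mean among the members in vehicle and in sulfatide, and Psme2 the next. Psmb8 moved from rank 3 in vehicle to rank 7 in sulfatide, Psmb10 from 6 to 16, Psme1 from 9 to 18 and Psmb9 from 23 to 35. Ranks next to each other often did not differ beyond the spread. In vehicle, for example, Psma5 (526.8 ± 37.1 FPKM) lay within an SD of Psmb5 (503.5 ± 27.0 FPKM), and Psmb5 within an SD of Psmb10 (483.3 ± 30.3 FPKM).

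Of the 31 constitutive subunits, 2 were lower, 1 was higher and 28 did not pass the test, where 10.4% of all genes tested were called lower and 8.31% higher. Psma5 and Psma3, both of the alpha ring, fell, and Psmd13, a structural subunit of the 19S lid, rose. In 24 of the 31 the estimate was above 0 and in 7 below, with log2 fold changes from -0.35 to 0.31. That direction depended on the scaling, since after rescaling to TPM 10 were above 0 and 21 below and the median was -0.04. Without overlap of the groups were 3 lower and 7 higher constitutive subunits, and among all 50 tested members 10 lower and 8 higher. The matching shares of all genes tested were 18.3% and 18.6%. Vehicle replicate 3 was the highest vehicle library for 28 of the 31 constitutive subunits, and over all genes it correlated with the sulfatide libraries at 0.979 to 0.982, against 0.967 to 0.977 for vehicle replicates 2 and 4. Its part in the results on constitutive subunits was not tested beyond leaving it out, which gave 2 lower and 3 higher.

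**Figure D3:**
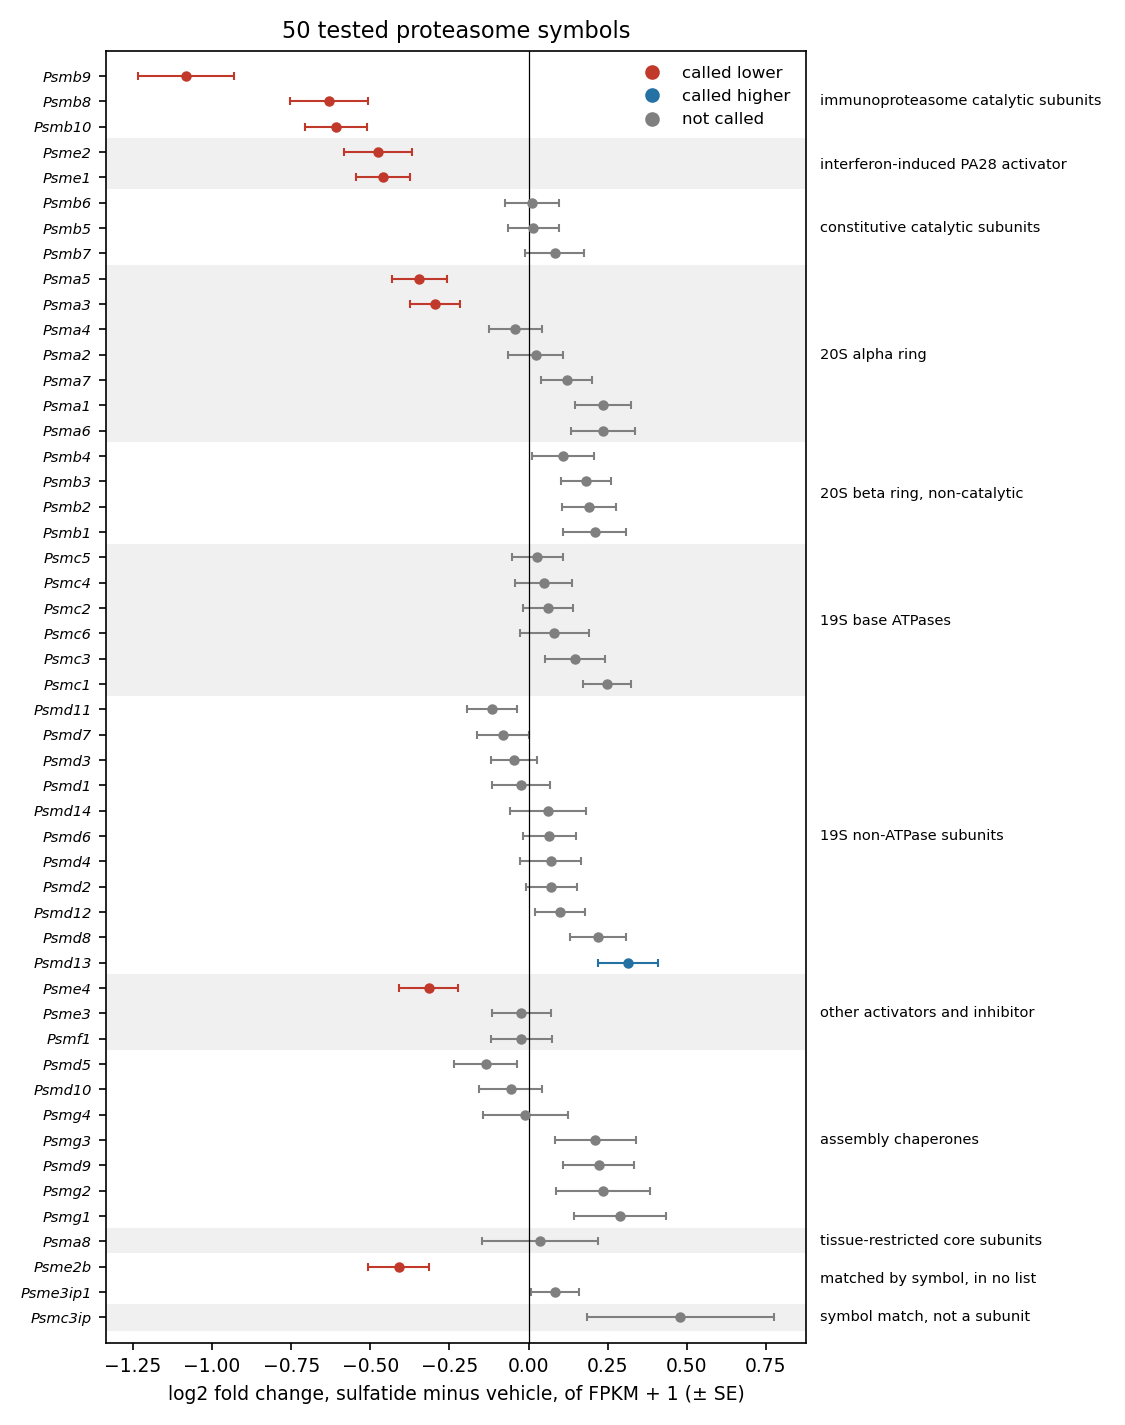
Log2 fold change (sulfatide minus vehicle, log2(FPKM + 1) scale) with its standard error for the 50 tested members, grouped by role; red points were called lower, the blue point higher and grey points not called. The 5 induced genes lie furthest to the left, from -1.08 for Psmb9 to -0.46 for Psme1.

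Psma5 was at 504.56, 569.53 and 506.18 FPKM in vehicle and at 437.26, 388.92 and 416.34 FPKM in sulfatide, with no overlap (1.27-fold lower, log2 fold change -0.35 ± 0.09, limma adjusted p = 0.0251). Psma3 was at 286.82, 277.03 and 254.31 FPKM in vehicle and at 222.33, 215.29 and 227.57 FPKM in sulfatide, also with no overlap (1.23-fold lower, -0.30 ± 0.08, limma adjusted p = 0.0336). Psma5 was lost without vehicle replicate 2, sulfatide replicate 2 or sulfatide replicate 3 (limma adjusted p at most 0.0808), and Psma3 without vehicle replicate 2 or any 1 sulfatide replicate (at most 0.147). Of the 50-base stretches of Psma5, 49.1% occur in other transcripts, mainly the copy Gm8394, and of those of Psma3 15.4% occur in Gm13835.

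The other 5 alpha ring genes and the 4 non-catalytic beta ring genes did not pass the test. Psma6 had means of 1010.6 ± 87.3 and 1190.5 ± 113.0 FPKM in vehicle and sulfatide (limma adjusted p = 0.136). Psma4, Psma2, Psma7 and Psma1 had log2 fold changes of -0.04, 0.02, 0.12 and 0.23. In the beta ring Psmb4, Psmb3, Psmb2 and Psmb1 had 0.11, 0.18, 0.19 and 0.21, with vehicle means from 203.5 FPKM for Psmb2 to 479.8 FPKM for Psmb4. After rescaling to TPM 1 of these beta ring estimates was below 0.

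In the 19S cap, 1 of 17 subunits rose and none fell by limma, against 8.31% higher and 10.4% lower over all genes tested. At an unadjusted p under 0.05 there were 3 higher and 0 lower, but the share of all genes at that level is not reported here. These counts therefore do not show a lean of the cap. Psmd13 was at 195.95, 224.71 and 198.40 FPKM in vehicle and at 277.43, 233.62 and 259.30 FPKM in sulfatide (1.24-fold higher, log2 fold change 0.31 ± 0.10, limma adjusted p = 0.0495). All sulfatide libraries were above all vehicle libraries, though the gap was small between vehicle replicate 3 and sulfatide replicate 2. The call lay at the edge of the threshold and was lost under 8 of 14 alternatives, among them leaving out vehicle replicate 2 or 4 or sulfatide replicate 1 or 3, and rescaling to TPM (limma adjusted p at most 0.213). Its exons share 10.1% of their bases with Sirt3 on the opposite strand.

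The 6 ATPases that form the base of the cap had log2 fold changes from 0.03 to 0.25 and none passed, and after rescaling to TPM 4 of them were below 0. Psmc1, the nearest to the threshold, was at 268.59, 283.77 and 285.25 FPKM in vehicle and at 342.15, 315.53 and 338.07 FPKM in sulfatide (0.25 ± 0.08, limma adjusted p = 0.0520). Its groups did not overlap, and it was called under 4 of 14 alternatives. The other 10 non-ATPase subunits had log2 fold changes from -0.12 (Psmd11) to 0.22 (Psmd8). Psmd4, a ubiquitin receptor of the cap, was at 260.9 ± 15.95 and 274.5 ± 28.8 FPKM, and Psmd14, which removes the ubiquitin chain, at 177.1 ± 28.3 and 183.6 ± 12.6 FPKM. Both differences were smaller than the spread between libraries.

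Among the other activators, Psme4 (PA200) fell and Psme3 (PA28 gamma) and the inhibitor Psmf1 (PI31) did not pass the test. Psme4 was at 17.42, 16.46 and 16.87 FPKM in vehicle and at 13.11, 13.93 and 13.13 FPKM in sulfatide (1.26-fold lower, log2 fold change -0.32 ± 0.09, limma adjusted p = 0.0440). The groups did not overlap, but the call was lost with no filter or without any 1 vehicle replicate, sulfatide replicate 1 or sulfatide replicate 3. The limma adjusted p was at most 0.249 under any alternative. Psme3 was at 71.4 ± 4.4 and 70.3 ± 5.8 FPKM, and Psmf1 at 33.3 ± 2.4 and 32.7 ± 2.0 FPKM. Their groups overlapped.

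None of the 7 assembly chaperones passed the test by limma, where 10.4% of all genes tested were called lower and 8.31% higher. At an unadjusted p under 0.05 the count was also 0 of 7, with no share of all genes to set beside it. With so few genes these counts do not set the chaperones apart from other genes. Psmg1 and Psmg2, which pair to build the alpha ring, were at 28.8 ± 6.2 and 28.4 ± 5.1 FPKM in vehicle and at 35.0 ± 2.9 and 33.5 ± 5.2 FPKM in sulfatide. Psmg3 and Psmg4, which act on the same ring, had log2 fold changes of 0.21 and -0.01. The base chaperones Psmd5, Psmd9 and Psmd10 (gankyrin) had -0.14, 0.22 and -0.06. The remaining symbols, Psme3ip1 (0.08), Psmc3ip (0.48) and Psma8 (0.03), did not pass either, and Psmc3ip stood at only 3.8 ± 1.6 and 5.7 ± 2.6 FPKM.

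**Figure D4:**
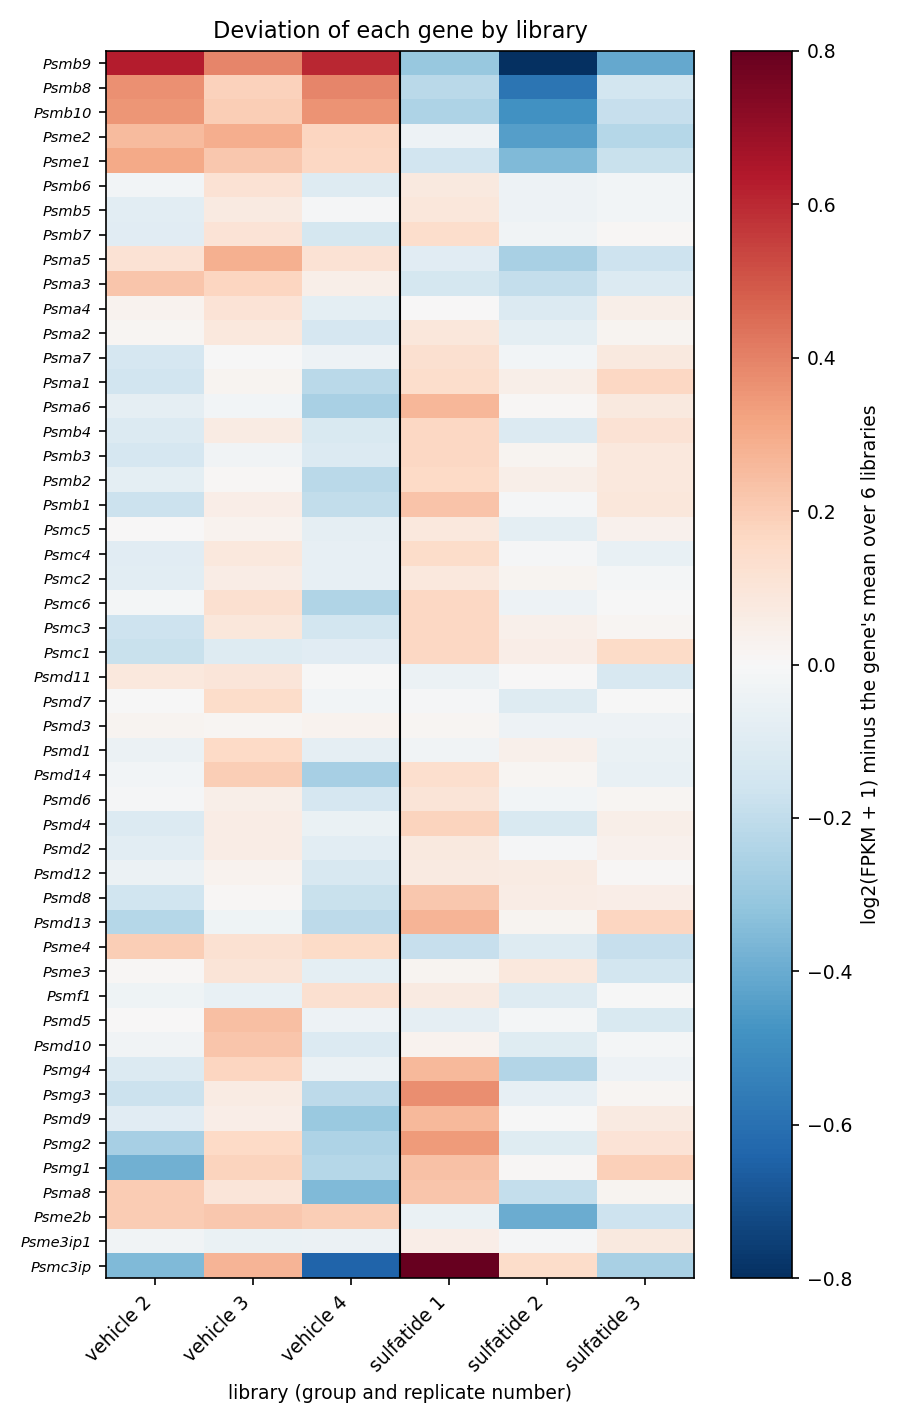
Log2(FPKM + 1) of the 50 tested members in each library, as the deviation from the gene's mean over the 6 libraries (red above, blue below; the colour scale stops at 0.8 on each side, in log2 units). The 5 induced genes at the top are above their means in the 3 vehicle libraries and below in the 3 sulfatide libraries, most of all in sulfatide replicate 2.

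Several regulators of proteasome genes were lower in sulfatide. Of 9 described, 6 fell, none rose by limma and 3 (Nfe2l2, Ddi2 and Maff) did not pass, with a median log2 fold change of -0.44 against 0.04 over all genes tested. Of all genes tested, 10.4% were called lower and 8.31% higher. At an unadjusted p under 0.05 the counts were also 6 lower and 0 higher, with no share of all genes to set beside them. Irf1, an interferon-induced activator of Psmb9 and Tap1, was at 201.79, 146.36 and 173.21 FPKM and then at 99.73, 89.20 and 129.04 FPKM (-0.71 ± 0.15, limma adjusted p = 0.0140). It was not called without vehicle replicate 2 (limma adjusted p = 0.0659). Nlrc5, the transactivator of MHC class I genes, fell 3.06-fold, from 12.8 ± 2.9 to 4.17 ± 0.54 FPKM. In both genes vehicle replicate 3 was the lowest vehicle library, as it was for the induced catalytic subunits. For Psme1 and Psme2 it was vehicle replicate 4. Sulfatide replicate 2, the lowest library for the induced genes, was the lowest for Irf1 too. For Nlrc5 it was the highest sulfatide library (3.82, 4.79 and 3.91 FPKM in replicates 1, 2 and 3). A link between these levels was not tested.

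Nfe2l1 drives the constitutive subunit genes when proteasome activity is short. It fell 1.36-fold, from 137.2 ± 2.6 to 101.1 ± 9.4 FPKM (log2 fold change -0.44 ± 0.09, limma adjusted p = 0.00965, and 0.0512 without sulfatide replicate 3). Its small Maf partners Mafk (1.86-fold) and Mafg (1.38-fold) and Ngly1 (1.34-fold), the enzyme that removes its sugar chains, were lower too. Mafg was not called without vehicle replicate 2 or 4 or sulfatide replicate 1 or 3 (limma adjusted p at most 0.0957), nor Ngly1 without vehicle replicate 2 or 3 or any 1 sulfatide replicate (at most 0.115). Ddi2, the protease that cuts its product free, was at 16.4 ± 2.8 and 17.8 ± 2.5 FPKM, within the spread.

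Partners of the proteasome with other symbols did not pass. None of the 16 found in the table, of 17 listed, was called by limma, against 10.4% lower and 8.31% higher over all genes tested. At an unadjusted p under 0.05 there were 3 higher (Akirin2, Sem1 and Uchl5) and 1 lower (Zfand5), with no share of all genes to set beside them. Adrm1, a ubiquitin receptor of the cap, was at 117.3 ± 4.1 and 114.6 ± 7.2 FPKM. Pomp, the chaperone of core maturation, was at 688.4 ± 15.97 and 690.4 ± 51.7 FPKM (95% interval of the log2 fold change up to 0.19). Sem1, the smallest subunit of the lid, was at 1256.40, 1508.23 and 1189.65 FPKM in vehicle and at 1781.19, 1509.47 and 1717.24 FPKM in sulfatide (0.34 ± 0.11, limma adjusted p = 0.0593). Leaving out vehicle replicate 3 gave an adjusted p of 0.0117 by limma, and leaving out sulfatide replicate 2 gave 0.0471. Vehicle replicate 3 and sulfatide replicate 2 were nearly equal for this gene.

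Of 9 ubiquitin genes described, 1 fell and 1 rose, which is about the rate over all genes tested (10.4% lower and 8.31% higher). Ube2l6, the interferon-induced conjugating enzyme for ISG15 and ubiquitin, fell 3.10-fold (352.9 ± 45.9 to 113.7 ± 17.9 FPKM, -1.63 ± 0.13, limma adjusted p = 0.000104). Rps27a, which encodes ubiquitin fused to a ribosomal protein, rose 1.29-fold (limma adjusted p = 0.0475). This rise was not called with no filter, after quantile normalization, after rescaling to TPM or without vehicle replicate 2 or 4 or sulfatide replicate 1 or 3.

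Downstream of the proteasome, 6 of 12 genes for peptide trimming and loading fell and none rose by limma. Over all genes tested 10.4% were called lower and 8.31% higher. At an unadjusted p under 0.05 there were 6 lower and 1 higher (Pdia3), with no share of all genes to set beside them. Tap1 was at 280.47, 200.52 and 278.74 FPKM in vehicle and at 82.23, 67.32 and 85.64 FPKM in sulfatide (3.23-fold lower, log2 fold change -1.67 ± 0.15, limma adjusted p = 0.000132). Tap2 fell 2.06-fold, the loading factor Tapbp 2.07-fold, its relative Tapbpl 1.46-fold and the peptide trimming enzyme Erap1 1.28-fold. Erap1 was not called without vehicle replicate 2 or 4 or sulfatide replicate 1 or 3 (limma adjusted p at most 0.103). B2m, the light chain of MHC class I, fell 1.29-fold (limma adjusted p = 0.0461). That call was lost under 8 of 14 alternatives, among them leaving out any 1 library but vehicle replicate 3 (limma adjusted p at most 0.192). The general chaperones Calr, Canx and Pdia3 and the cytosolic peptidases Lap3, Npepps and Tpp2 did not pass. Psmb9, Tap1, Psmb8 and Tap2, which follow each other on chromosome 17, were thus all called lower, by 1.54-fold to 3.23-fold.

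**Figure D5:**
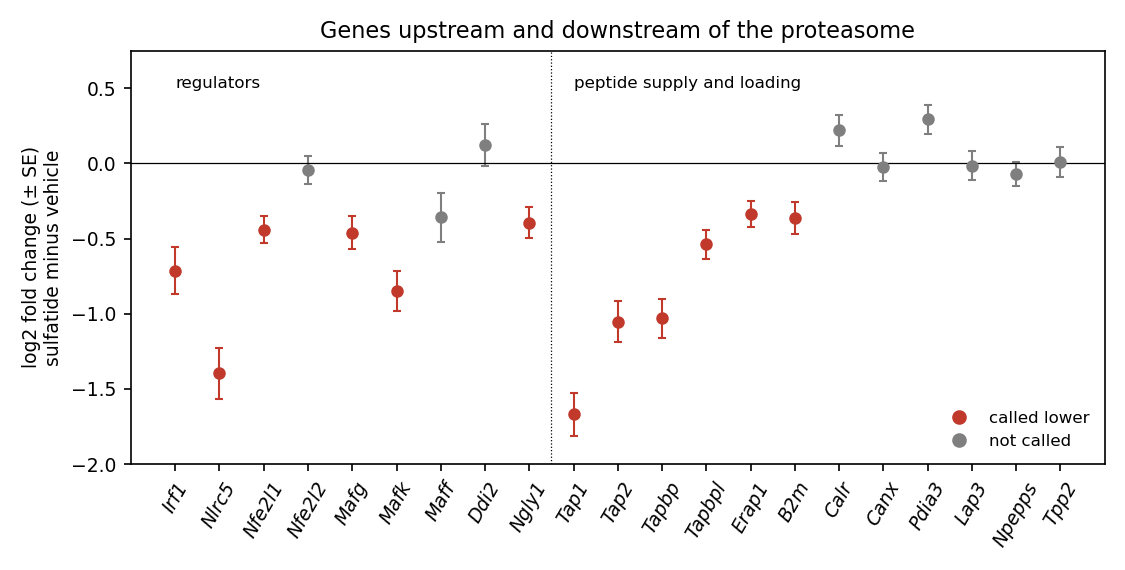
Log2 fold change (sulfatide minus vehicle, log2(FPKM + 1) scale) with its standard error for regulators of proteasome genes and for genes of peptide supply and loading; red points were called lower and grey points not called. Tap1 (-1.67) and Nlrc5 (-1.40) lie lowest, and no gene of either list was called higher.

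FPKM summed to 1126779 to 1168474 in vehicle and to 1217971 to 1249691 in sulfatide libraries, and 10254 to 10350 genes reached 1 FPKM in each. The table holds no counts, so the absolute depth is unknown. Markers fixed for the cells that lavage fluid can hold were summed per library beside the results on the induced genes. The macrophage markers (9 of 9 tested, none called by limma, Adgre1 and Fcgr1 lower at an unadjusted p under 0.05) summed to 32844.2 to 37619.9 FPKM in vehicle and 30494.9 to 41752.7 in sulfatide. Of 10 markers of resident alveolar macrophages 5 were tested and 1 (Itgax) was lower, with sums of 109.9 to 145.4 and 88.45 to 235.6 FPKM, while Fabp1 and Krt79 were listed at 0 and Siglecf, Car4 and Ear1 stayed under 1 FPKM in all 6 libraries. Of 10 neutrophil markers 6 were tested and S100a8 and Mmp8 were higher, while at an unadjusted p under 0.05 Csf3r was also higher and Camp lower (median log2 fold change of the 6 genes 0.09), with sums of 174.4 to 240.1 and 460.7 to 634.1 FPKM, while Ly6g, Cxcr2, Retnlg and Mpo stayed under 1 FPKM. All 12 markers of T, NKT and NK cells stayed under 1 FPKM, 7 of them listed at 0, with sums of 0.64 to 1.01 and 0.49 to 0.90 FPKM, and all 9 epithelial markers stayed under 1 FPKM, with sums of 0.15 to 0.21 and 0.27 to 0.45. Of the monocyte markers (6 listed, 3 tested) Nr4a1 was lower, with sums of 23.14 to 33.93 and 20.32 to 33.34 FPKM. Of 7 dendritic cell markers 2 were tested, Cd209a being higher and Ccr7 lower, with sums of 2.33 to 2.90 and 2.67 to 3.42 FPKM. Of 9 endothelial and stromal markers 4 were tested and Pdgfrb was lower (sums of 44.32 to 55.63 and 38.70 to 48.75 FPKM), and of 7 B cell markers 1 was tested and not called (sums of 0.35 to 1.36 and 1.51 to 2.14 FPKM). The part of the neutrophil markers in the falls of the induced genes was not tested. In such bulk samples fewer cells of a type and less RNA per cell cannot be told apart.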

How the data were processed

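RNA of cells from lavage fluid was measured in 6 libraries. TRIzol extraction, poly(A) enrichment and strand-specific paired-end sequencing were used, per the labels' protocols. The submitters' processing notes name the build mm10. No source used here gives the aligner, the counting program, its use of strand or the annotation. The authors deposited 1 table of FPKM values rounded to 2 decimals; its 3 further value columns matched no sample and were not used.

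Values were analysed as log2(FPKM + 1) with limma 3.58.1 in R 4.3.3 (functions lmFit and eBayes, trend on), 2-sided, over all genes at 1 FPKM or more in at least 3 libraries, after the code had been tested on simulated data. FPKM are not counts, so no count model was used. The log scale with a pseudocount understates changes of low genes. Folds are ratios of mean FPKM. Alternatives were other pseudocounts, filters, TPM, quantile normalization, array weights, a replicate block and leaving out each library. Sequences and positions are from RefSeq (GRCm38). Shared stretches of 50 bases and exon overlaps were computed from GENCODE transcripts.

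Members and lists were chosen with earlier results of these data known. Values in every library are given for the induced genes, the constitutive catalytic subunits and every other called member. Of the other lists up to 5 called members with the smallest p are named, with Adrm1, Sem1, Pomp, Nfe2l1, Irf1, Nlrc5 and Tap1 whatever their result. Psmc1, Ngly1, Ddi2, B2m, Pdia3, Akirin2, Uchl5, Zfand5, Nfe2l2, Maff and the marker genes named were chosen after their values were seen. So were Calr, Canx, Lap3, Npepps and Tpp2. Some genes of these lists are not reported here.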

Additional observations from a re-analysis of the deposited data

How the results depend on the processing

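Psmb8, Psmb9, Psmb10 and Psme1 were called lower under each of 14 alternatives, and the number of induced genes called stayed at 4 or 5 of 5. The 9 members called lower became 8 with no filter, 7 with the replicate block and 4 to 8 when 1 library was left out. The number was 4 without vehicle replicate 2 or sulfatide replicate 3. The 1 member called higher became 0 with a pseudocount of 0.1, no filter, TPM or the replicate block, 2 with the filter at 5 FPKM, 3 after quantile normalization, 8 with array weights and 0 to 4 when 1 library was left out (4 without vehicle replicate 3). Of the constitutive subunits, the 2 lower became 1 with the replicate block and 0 to 2 when 1 library was left out. The 1 higher became 0 with a pseudocount of 0.1, no filter, TPM or the replicate block, 2 with the filter at 5 FPKM, 3 after quantile normalization, 6 with array weights and 0 to 3 when 1 library was left out. The causes were not tested. Their median, 0.07, was -0.04 with TPM and -0.02 with the replicate block. The change of induced minus constitutive genes was -0.80 to -0.63. Only numbers 2 and 3 occur in both groups, and deviations of same-numbered libraries correlated at 0.156 and -0.303, so the numbers were not taken to pair the samples. With the replicate block Psma3, Psme4, Psmd13, Irf1, Nfe2l1, Mafg, Ngly1, Erap1, B2m and Rps27a were not called (limma adjusted p 0.0758 for Nfe2l1 to 0.249 for Psme4). Rounded FPKM without counts leave the precision of low members such as Psma8 unknown.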
